A study of Rattus norvegicus with 6 samples.

Results

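Vesicle traffic moves proteins between the membranes of a cell, and 126 genes named for its machinery are described here in the lateral ventricular choroid plexus of the rat. They are the Rab GTPases and their partners, SNAREs, synaptotagmins, coats, dynamins, tethers and endosome sorting proteins. They were chosen by symbol from the 10093 genes that carry a name in the authors' table of genes called different between the ages, out of 29479 gene identifiers counted. Because that table was selected on the same contrast, the differences between the ages given below describe these genes and are not tests of them, and genes of the same families that the authors did not call are not analysed here by name. All 126 passed the filter on low counts (more than 10 counts over the 6 libraries), as did 16643 genes in all.

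Sprague-Dawley rats were compared at embryonic day 15 (E15) and as adults of 6 weeks, with no treatment named at either age. Each library came from a pool of the left and right plexuses of 10 animals, and 3 separate pools were sequenced at each age. The plexus was taken whole, so epithelium, stroma, vessels and blood cells contributed RNA, and a lower share of a cell type cannot be told apart from less RNA per cell. The libraries held 17875089 to 19204440 counts. Of 12 epithelial markers listed for the tissue, 9 carry a name, none was at 0 at either age and all 9 were called higher in the adult. Their summed levels were 456462 to 547247 normalized counts at E15 and 3977630 to 4875830 in the adult. Most of each sum was *Ttr*, at 375736 to 463449 (E15) and 3508780 to 4420080 (adult). *Slc4a10*, the lowest of the 9 at E15, was at 314 to 487 there and at 24359 to 25801 in the adult.

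Each step of vesicle traffic has its own proteins. Coats such as clathrin with its adaptors bend a membrane and choose cargo, dynamins cut the bud free, Rab GTPases mark the vesicle and its destination, tethers catch it, and SNAREs on the facing membranes zip together to fuse them. In the choroid plexus, epithelial cells secrete cerebrospinal fluid, place transporters on the surface facing the ventricle and carry plasma proteins across the cell in vesicles.

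The values below are normalized counts, that is raw counts scaled by TMM factors to a library of 18573162 counts, given for replicates 1, 2 and 3 in that order. Log2 fold changes are positive where a gene was higher at E15 and carry their standard error (SE, from 3 pools per age). A gene is called where edgeR's quasi-likelihood test, adjusted by the Benjamini-Hochberg method over all genes tested, passed the threshold of 0.05. Of the 126 genes, 118 were called (93.7%, beside 64% of all genes tested), 34 of them higher at E15 (27.0%, beside 34.7%) and 84 higher in the adult (66.7%, beside 29.3%). The pools of the ages did not overlap for 119 genes (94.4%, beside 70.1% of all genes tested and 94.3% of the genes tested that the authors' table names). Nothing is read from these shares, since the choice of genes used this contrast. Among the 9958 named genes tested, 50.6% were called at E15 and 42.2% in the adult. The counts called in each role group, complex and list below stand beside these shares too, and nothing is read from them. Called with a fold change above 2 were 20 genes at E15 (15.9%, beside 24.9% of all genes tested and 39.6% of the named genes tested). In the adult there were 49 (38.9%, beside 17.9% and 28.5%). Among called genes, the 2 nearest to 0 on each side were *Rab5c* (-0.52), *Rab22a* (-0.53), *Ap2m1* (0.57) and *Rab13* (0.57), and genes with changes too small for the authors' table carry no name here.

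The direction of the smaller changes depended on the scaling, and changed only where libraries were scaled by total counts alone. The median log2 fold change was -0.83 over the 126 genes and 0.14 over all genes tested under TMM scaling, against -0.02 and 0.95 when libraries were scaled by total counts only, a shift of all genes by 0.80. Since the change of scaling shifts all genes nearly alike, the difference between these medians had to stay near its value of -0.97, and nothing is read from it. Over the 9958 named genes tested the median was 0.73 under TMM scaling. With total counts only, 40 of the genes were called at E15 and 34 in the adult, and 21 changed sign, of which *Rab5b* and *Rab5c* were called in the opposite direction. The share of all genes called with total counts only is not given here, so nothing is read from these counts. All 34 genes called at E15 were also called there under RLE, upper quartile and total counts scaling, whereas 34 of the 84 adult genes were called in the adult under all of these. The loss came with total counts. Under RLE 84 genes were called in the adult and under upper quartile scaling 82, and none of the 118 called genes changed sign under either. The summed raw counts of the 126 genes made up 0.945% to 1.07% of a library, with the ages overlapping. On the normalized scale the sums were 138033 to 150924 at E15 and 235871 to 240638 in the adult.

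**Figure D1:**
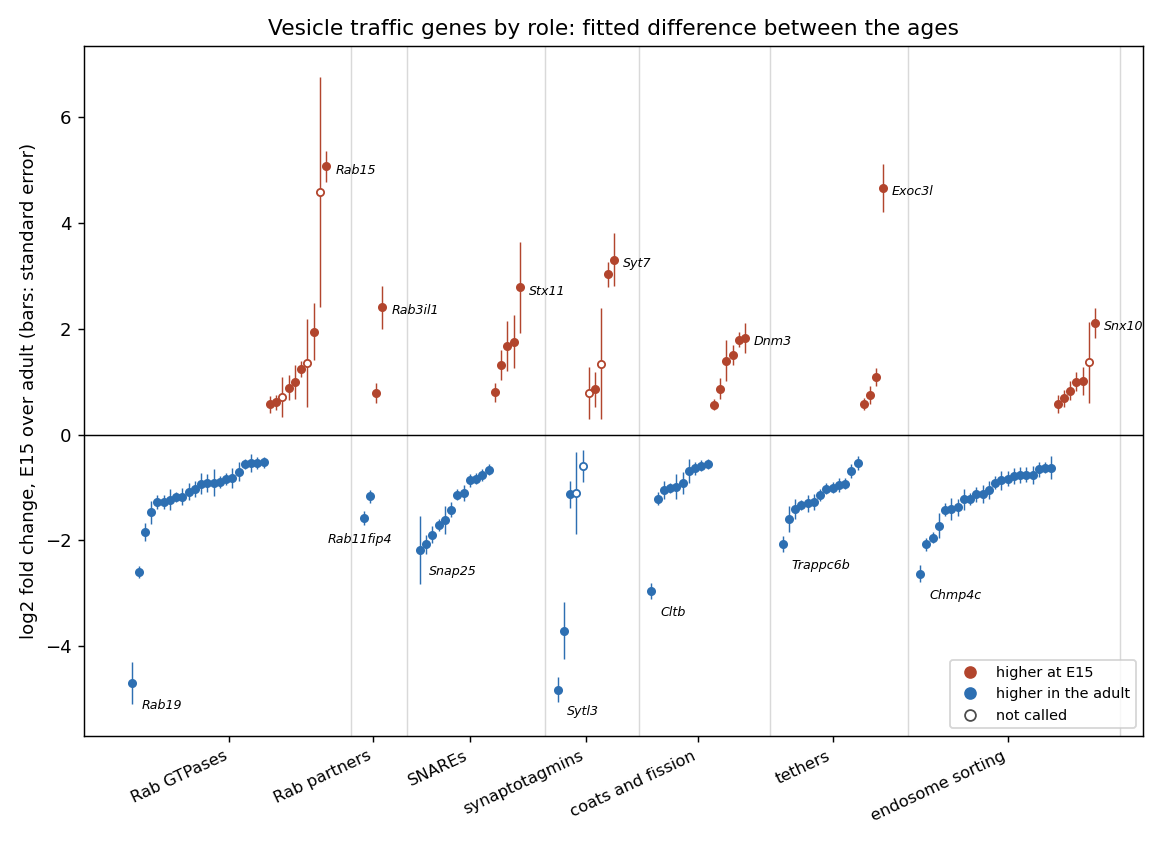
Fitted log2 fold changes (vertical axis, positive higher at E15, TMM scaling) of the members in 7 role groups along the horizontal axis, with bars for the standard error, filled points for called genes and open points for genes not called. Most points of the Rab, SNARE, tether and endosome sorting groups lie below 0, while *Rab15* (5.07) and *Exoc3l* (4.67) lie far above and *Sytl3* (-4.83) and *Rab19* (-4.70) far below, and under total counts scaling 21 of the smaller changes switch sign.

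The Rab GTPases were the largest of 7 role groups, with 32 members, of which 7 were called at E15, 22 in the adult and 3 at neither age, and their median log2 fold change of -0.83 became -0.02 with total counts only, where 5 of the 32 changed sign. *Rab15*, a Rab of early and recycling endosomes, stood at 650.2, 598 and 612 at E15 and at 19.1, 27.5 and 7.94 in the adult. The E15 pools were close together and all far above the adult pools, with a log2 fold change of 5.07 (SE 0.30). *Rab40c*, one of the Rabs that carry a SOCS box for ubiquitin ligases, held 824, 1185 and 1103 at E15 against 459, 417 and 445 in the adult, a log2 fold change of 1.24 (SE 0.15). *Rab33a* (1.94), *Rab27b* (0.999), *Rab6b* (0.89), *Rab11b* (0.61) and *Rab13* (0.57) were the other Rabs called at E15.

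*Rab19* ran the other way. Its counts stood at 9.47, 3.71 and 4.54 in the embryo against 192, 125 and 149.6 in the adult, with a log2 fold change of -4.70 (SE 0.40). *Rab3a*, the Rab of synaptic vesicles and secretory granules, rested on more counts, 327, 299 and 295 at E15 against 1964, 1904 and 1727 in the adult, and differed by -2.60 (SE 0.12) on the log2 scale. Its 3 pools lay within a narrow range at either age. *Rab21*, which acts on early endosomes and the uptake of integrins, was at 1202, 799.6 and 784 (E15) and 3178, 3301 and 3508 (adult), a log2 fold change of -1.84 (SE 0.17). *Rab7a* of late endosomes (-1.17), *Rab18* of lipid droplets and the endoplasmic reticulum (-1.28), *Rab20* (-1.27), *Rab40b* (-1.47), *Rab3a*, *Rab19* and *Rab21* were the 7 Rabs called in the adult under all scalings.

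*Rab5b*, a Rab of early endosomes, had the highest mean count of the group at both ages (not corrected for gene length), with 6255, 5665 and 5834 at E15 against 8514, 8438 and 9008 in the adult. Its log2 fold change was -0.55 (SE 0.09) under TMM and 0.26 with total counts only, so its direction rested on the scaling. *Rab25*, an epithelial relative of Rab11, was close to the limit of detection, with raw counts of 0, 7 and 4 at E15 and 0 in each adult pool. It was not called, and the pools of the ages overlapped. Against a floor of 3 counts over the adult pools its pooled E15 counts were 2.13-fold higher. That value leaves out the spread among the E15 pools, so it sets no minimum for the difference. *Rab3c* and *Rab43* were not called either.

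The 4 Rab partners divided evenly, and none changed sign with total counts only. *Rab3il1*, an exchange factor for Rab3 and Rab8, was at 118, 199 and 194 at E15 against 39.6, 42.6 and 13.2 in the adult, with a log2 fold change of 2.41 (SE 0.41). Its relative *Rab3ip* (Rabin8, the exchange factor for Rab8 in ciliogenesis) was at 749.7, 631 and 714 (E15) and 1489, 1447 and 1768 (adult), a log2 fold change of -1.17 (SE 0.13). The exchange factors thus lay on opposite sides. *Rab11fip2* and *Rab11fip4*, effectors of the recycling Rab11, also differed in direction, at 0.79 (SE 0.19) and -1.57 (SE 0.13).

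**Figure D2:**
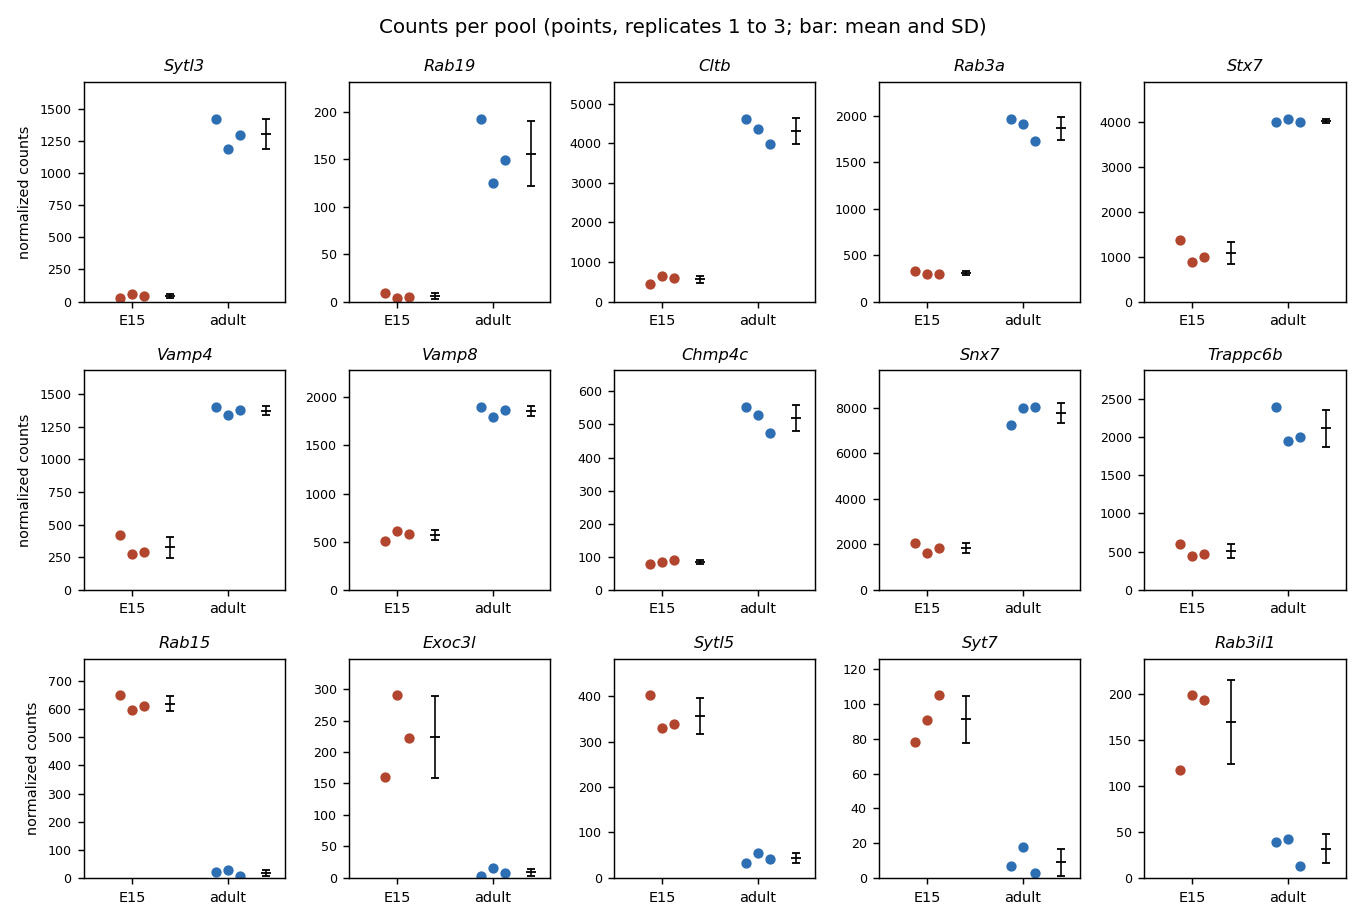
Normalized counts (vertical axes, from 0) of 15 members in each pool at E15 and in the adult, with a bar for the mean and SD of the 3 pools. No panel shows overlap between the ages, which the rule that named most of these genes required, and *Exoc3l* ranges from 160 to 290.3 among the E15 pools.

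The promoters of 4 of the members with the largest changes are shown because these genes moved furthest in their groups and their start regions differ in the elements they hold. Each runs from 250 bases before the annotated start to 50 after it (300 bases, RefSeq, rat build GRCr8, written in the direction of the gene), with capitals for matches on either strand to 5 motifs, the TATA box motif TATAAA, the CCAAT box motif CCAAT, the GC box motif GGGCGG, the E-box motif CACGTG and the cyclic AMP response element motif TGACGTCA.
Sytl3 (chr1:49316043-49316342, + strand): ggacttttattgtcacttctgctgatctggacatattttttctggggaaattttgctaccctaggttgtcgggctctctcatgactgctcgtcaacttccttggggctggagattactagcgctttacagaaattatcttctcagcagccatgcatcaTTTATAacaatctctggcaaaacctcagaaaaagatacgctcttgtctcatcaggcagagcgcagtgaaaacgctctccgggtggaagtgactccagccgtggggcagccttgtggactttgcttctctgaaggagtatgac
Rab19 (chr4:69123712-69124011, + strand): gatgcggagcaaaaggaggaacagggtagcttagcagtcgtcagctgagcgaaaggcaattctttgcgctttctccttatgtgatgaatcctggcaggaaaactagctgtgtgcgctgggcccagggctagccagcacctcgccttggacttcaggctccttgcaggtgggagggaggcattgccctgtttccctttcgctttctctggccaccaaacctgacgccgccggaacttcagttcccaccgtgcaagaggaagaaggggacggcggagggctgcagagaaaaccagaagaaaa
Cltb (chr17:10006465-10006764, + strand): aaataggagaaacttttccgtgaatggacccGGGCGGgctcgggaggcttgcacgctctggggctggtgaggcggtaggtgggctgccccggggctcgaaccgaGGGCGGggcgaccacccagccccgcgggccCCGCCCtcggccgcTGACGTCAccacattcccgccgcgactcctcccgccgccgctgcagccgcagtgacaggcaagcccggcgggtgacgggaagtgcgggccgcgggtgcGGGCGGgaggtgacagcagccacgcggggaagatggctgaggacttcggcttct
Rab15 (chr6:101257034-101257333, - strand): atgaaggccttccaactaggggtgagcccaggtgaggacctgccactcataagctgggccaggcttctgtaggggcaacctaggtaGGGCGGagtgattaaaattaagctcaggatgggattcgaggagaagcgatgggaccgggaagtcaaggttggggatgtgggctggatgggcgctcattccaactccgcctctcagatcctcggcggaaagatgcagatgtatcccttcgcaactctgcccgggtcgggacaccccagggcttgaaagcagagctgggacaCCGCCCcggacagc
*Sytl3* holds 1 TATAAA and none of the other motifs, *Rab19* holds none, *Rab15* holds 2 GC boxes, and *Cltb* holds 4 GC boxes and 1 cyclic AMP response element. Promoters were found for 102 of the 126 genes. The GC box occurred in 68.6% of these and in 34.9% of 27457 rat promoters of the same length, CCAAT in 41.2% and 37.7%, TATAAA in 2.94% and 14.3%, the E-box in 6.86% and 6.65%, and the cyclic AMP response element in 3.92% and 1.91%. The GC box was found in 65.4% of the 26 matched members called at E15 and in 70.0% of the 70 called in the adult. Median GC content was 62.7% and 63.0% in these sets, 62.8% over the 102 and 52.3% over all promoters. A match is a string of letters and not a binding site.

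Of the 17 SNAREs, 12 were called in the adult and 5 at E15, with a median log2 fold change of -0.87 under TMM and -0.06 with total counts only, where *Stx3* and *Stx12* changed sign. The SNAREs that fuse late endosomes and lysosomes were among those higher in the adult. *Stx7* stood at 1364, 885 and 1000.3 at E15 against 3990.0, 4059.8 and 3997 in the adult, a log2 fold change of -1.89 (SE 0.16). *Vamp8* was at 511, 614 and 578 (E15) and 1900.1, 1801 and 1871 (adult), a log2 fold change of -1.71 (SE 0.11). *Stx8* (-1.42) and *Vamp7* (-1.10), which act on the same compartments, lay on the same side, and *Stx7*, *Stx8* and *Vamp8* were called in the adult under all scalings. *Vamp4*, a SNARE of the trans-Golgi network, was at 417, 270.2 and 289.6 (E15) and 1402, 1338 and 1382 (adult), with a log2 fold change of -2.08 (SE 0.17).

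*Stx11*, a syntaxin best known from the granules of cytotoxic lymphocytes, had the largest E15 value of the group at 2.79 (SE 0.86), on raw counts of 10, 31 and 34 at E15 against 2, 0 and 4 in the adult. Leaving out adult replicate 3 raised it to 3.71, leaving out adult replicate 2 lowered it to 2.16, and without E15 replicate 2, E15 replicate 3 or adult replicate 1 it was no longer called. *Vamp5*, found chiefly in muscle, was at 94.7, 159.6 and 141 at E15 against 64.2, 45.1 and 48.99 in the adult, a log2 fold change of 1.32 (SE 0.29). The surface SNAREs of epithelia were split, with *Stx2* at 0.80, *Snap23*, the widely expressed relative of *Snap25*, at -0.87 and the apical syntaxin *Stx3* at -0.76 under TMM. With total counts only *Snap23* stood at -0.06 and *Stx3* at 0.04, neither called. *Stx12* of recycling endosomes, with the highest mean count among the SNAREs at E15, was at 2379, 2039 and 2101 (E15) and 3249, 3665 and 3423 (adult), and its log2 fold change of -0.67 became 0.14 with total counts only.

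The synaptotagmin-like proteins, which bind Rab27 and dock granules at the surface, ranged from -4.83 to 3.03 on the log2 scale, and the direction of each of the 4 was the same under all scalings. *Sytl3* had 29.99, 62.4 and 44.6 normalized counts at E15 against 1421, 1189 and 1298 in the adult, a log2 fold change of -4.83 (SE 0.24). *Sytl5* ran the other way, with 402, 329.6 and 338 at E15 against 32.8, 55.1 and 42.4 in the adult and a log2 fold change of 3.03 (SE 0.23). The E15 and adult pools of both genes were far apart. *Sytl1* was low throughout, with raw counts of 3, 9 and 3 at E15 against 25, 45 and 47 in the adult (-3.70, SE 0.54; -4.39 without E15 replicate 2). *Sytl4* was at 0.85 (SE 0.33), and was called without E15 replicate 1 and without adult replicate 3 but not when any of the other pools was left out. Their partner *Rab27a* was higher in the adult (-0.92 under TMM, -0.11 with total counts only) and *Rab27b* at E15 (0.999).

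Of the 6 synaptotagmins proper, the calcium sensors of exocytosis, *Syt7* was called at E15 and *Syt1* in the adult. *Syt7*, which also acts in the exocytosis of lysosomes, was at 78.1, 90.6 and 105 at E15 against 6.83, 17.5 and 2.65 in the adult, a log2 fold change of 3.31 (SE 0.50) that was 4.21 without adult replicate 2. *Syt1*, the fast sensor of synaptic vesicles, was at 108, 63.1 and 88.5 (E15) and 182, 229 and 158 (adult), with a log2 fold change of -1.13 (SE 0.26) that was -0.33 and not called with total counts only. *Syt3*, *Syt4*, *Syt6* and *Syt10* were not called, and the pools of the ages overlapped for the last 3 of these.

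Of the 16 coat, Arf and dynamin genes, 6 were called at E15 and 10 in the adult, with a median log2 fold change of -0.61 under TMM and 0.19 with total counts only, where *Ap1g1*, *Ap3s1*, *Clta* and *Cltc* changed sign. The clathrin light chains differed from each other. *Cltc*, the heavy chain, had the most counts of all members, with 19490.3, 16641 and 17176 at E15 against 25098, 25503 and 27736 in the adult, and its log2 fold change was -0.56 (SE 0.10) under TMM and 0.25 with total counts only. The light chain *Clta* was similar at -0.58 and 0.22. The other light chain, *Cltb*, went from 448, 639 and 588 at E15 to 4617, 4349 and 3978 in the adult, a log2 fold change of -2.95 (SE 0.15) and of -2.14 with total counts only. It was higher in each adult pool than in any E15 pool under either scaling.

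Within AP-1, the adaptor of the trans-Golgi network and endosomes, the subunits moved apart. *Ap1s1* (small subunit) was at 781, 793 and 776 at E15 against 257, 222 and 199 in the adult, a log2 fold change of 1.80 (SE 0.14). *Ap1m1* (medium subunit) was at 2497, 3958 and 3979.9 (E15) and 1335, 1249 and 1079 (adult), a log2 fold change of 1.51 (SE 0.18), with E15 replicate 1 lowest of the E15 pools. *Ap1b1* (large subunit), the other way, was at 1992, 2435 and 2546 (E15) and 5531, 5655 and 4965 (adult), a log2 fold change of -1.21 (SE 0.12). *Ap1s2*, the alternative small subunit, was at -0.99 and *Ap1g1* at -0.64 under TMM and -0.18 and 0.17 with total counts only. Both named subunits of AP-2, the endocytic adaptor at the plasma membrane, were higher at E15 (*Ap2s1* 0.87, *Ap2m1* 0.57), as were *Dnm3* (1.83, SE 0.28) and *Dnm1* (1.40, SE 0.39), the dynamins known chiefly from nerve terminals, under all scalings. *Arf4*, a GTPase of the Golgi, was at 9847, 6086 and 6829 (E15) and 15272, 15588 and 16096 (adult), a log2 fold change of -1.04 under TMM and -0.24 with total counts only.

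The 17 tethering genes had 4 called at E15 and 13 in the adult, with a median of -1.003 under TMM and -0.20 with total counts only, where *Cog7* and *Vps33b* changed sign. The exocyst, which tethers vesicles at the surface, was split, and none of the 5 genes with an Exoc symbol changed sign between the scalings. *Exoc3l*, a relative of the exocyst subunit Exoc3, was at 160.2, 290.3 and 222 at E15 against 2.73, 15.02 and 7.94 in the adult, a log2 fold change of 4.67 (SE 0.45) that was 5.32 without adult replicate 2. *Exoc7* (0.75) and *Exoc4* (0.58) were also higher at E15, while *Exoc2* (-1.003 under TMM, -0.20 with total counts only) and *Exoc6* (-1.59, -0.79) were higher in the adult. *Exoc6* rested on few counts, 48.1, 46.8 and 58.97 at E15 against 131, 188 and 146 in the adult.

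All 4 named subunits of TRAPP, the complex that activates Rab1 between the endoplasmic reticulum and the Golgi, were higher in the adult by more than 2-fold under TMM and were called there under all scalings. *Trappc6b* was at 604, 438 and 475 at E15 against 2397, 1948 and 2010.0 in the adult, a log2 fold change of -2.07 (SE 0.15). *Trappc2* was at 547, 330.4 and 352 (E15) and 1102, 1035 and 1125 (adult), a log2 fold change of -1.41 (SE 0.19). *Trappc3* (-1.33) and *Trappc6a* (-1.30) were close to it. *Rab1*, the Rab that TRAPP acts on, was at -0.84 under TMM and -0.03 with total counts only. The golgins *Golga2* (-1.14) and *Golga5* (-0.93) and the COG subunits *Cog6* (-0.95) and *Cog7* (-0.69), tethers of the Golgi stack, were higher in the adult under TMM, but with total counts only *Golga2* alone of these was still called and *Cog7* changed sign. Within GARP, which tethers endosome-derived vesicles at the trans-Golgi network, *Vps52* was at 783, 1128 and 1176 at E15 against 504, 456 and 489 in the adult (1.09, SE 0.17) and *Vps54* was higher in the adult (-1.28), each in the same direction under all scalings.

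**Figure D3:**
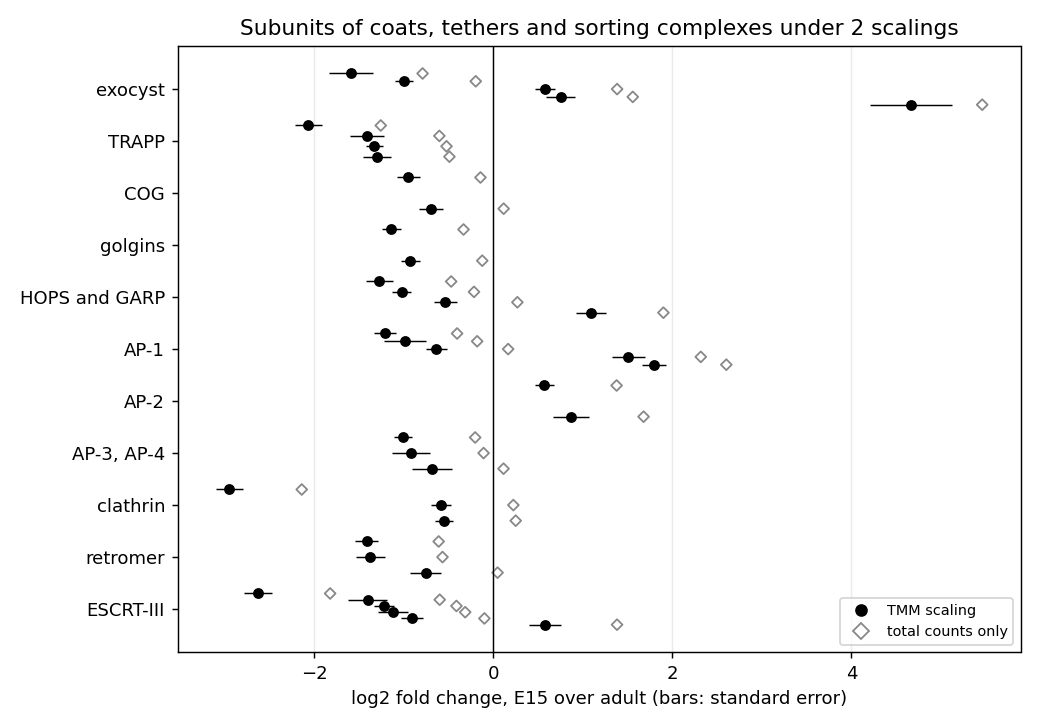
Fitted log2 fold changes (horizontal axis, positive higher at E15) of the named subunits of 11 complexes or families (rows), as black points with standard errors under TMM scaling and open diamonds with total counts only. The exocyst row also holds *Exoc3l*, a relative of a subunit. The 4 TRAPP subunits stay below 0 under either scaling (-2.07 to -0.49) and the 2 AP-2 subunits above it, the exocyst and AP-1 rows hold points on either side, and 2 of the 3 clathrin genes cross 0.

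The 29 endosome sorting genes had 6 called at E15, 22 in the adult and 1 at neither age, and a median of -0.83 under TMM and -0.02 with total counts only, where 7 changed sign. ESCRT-III, the filament that pinches vesicles into late endosomes and severs the bridge between dividing cells, had 5 of 6 members higher in the adult, of which 3 were still called there with total counts only, where none changed sign. *Chmp4c*, which delays the last cut between daughter cells, was at 77.3, 84.6 and 89.2 at E15 against 553, 529.5 and 475 in the adult, a log2 fold change of -2.63 (SE 0.16). The proliferation markers ran the other way, 3 of 6 carrying a name, all called at E15, with summed levels of 5672 to 6117 at E15 and 51.3 to 63.6 in the adult. *Chmp5* (-1.41), *Vps24* (-1.22), *Chmp2b* (-1.12) and *Chmp1b* (-0.91) followed under TMM, the last 2 at -0.32 and -0.10 and not called with total counts only, with *Chmp6* (0.58) on the E15 side.

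The cargo-selective core of retromer, which returns receptors from endosomes, was higher in the adult in all 3 subunits under TMM, whereas with total counts only *Vps35* stood at 0.05. *Vps29* was at -1.42 (SE 0.13), *Vps26a* at -1.37 (SE 0.16) and *Vps35*, with the most counts of the sorting genes at E15 (4912, 3002 and 3408 against 6016, 6557 and 6559.6 in the adult), at -0.76 (SE 0.17). Sorting nexins bind endosomal lipids, and of 15 named here 9 were called in the adult, 5 at E15 and 1 at neither age, with *Snx2*, *Snx11*, *Snx25* and *Snx33* changing sign with total counts only. *Snx7* was at 2060.4, 1624 and 1836 at E15 against 7254, 7974 and 8025 in the adult, a log2 fold change of -2.07 (SE 0.12). *Snx14* was at 369, 382 and 355 (E15) and 1335, 1507 and 1415 (adult), a log2 fold change of -1.95 (SE 0.11). *Snx10*, which acts with the vacuolar proton pump, lay furthest on the E15 side among the sorting genes called, at 253, 211 and 234 (E15) and 32.8, 72.6 and 55.6 (adult), a log2 fold change of 2.11 (SE 0.28). *Snx29* (1.01) and *Snx15* (1.002) were also higher at E15. *Vps72*, named like a sorting gene but a subunit of chromatin remodelling complexes, was higher at E15 (1.54) and is counted in no role group.

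Several genes with a close relative among the members differed from it in the direction or size of the change, and the make-up of such pairs differed between the ages. The pairs were chosen after the values had been seen, and a share of a pair's raw counts is not corrected for gene length, so it compares ages and not genes, but it is free of the scaling between libraries. *Cltb* made up 14.5% ± 0.997 (SD, n = 3) of the counts of the 2 clathrin light chains at E15 and 46.7% ± 0.697 in the adult. *Sytl5* fell from 88.5% ± 4.49 of the *Sytl3* and *Sytl5* counts to 3.28% ± 1.09. *Ap1s2* went from 41.5% ± 8.94 of the AP-1 small subunits to 83.6% ± 0.594, with E15 replicate 1 highest of its age at 51.8%. The pools of the ages did not overlap in any of these.

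Among Rabs, *Rab11b* made up 62.9% ± 10.03 of *Rab11a* and *Rab11b* at E15 and 35.5% ± 1.36 in the adult, *Rab6b* 11.9% ± 2.48 and 3.20% ± 1.18 of *Rab6a* and *Rab6b*, and *Rab27b* 24.6% ± 2.38 and 8.02% ± 2.04 of *Rab27a* and *Rab27b*. *Rab6b* is known from neurons, and Rab11 proteins recycle cargo to the surface. *Rab40c* was 94.8% ± 0.866 of *Rab40b* and *Rab40c* at E15 and 73.7% ± 1.20 in the adult. Among Rab partners, *Rab11fip4* went from 34.5% ± 6.55 to 72.4% ± 0.960 of its pair with *Rab11fip2*, and *Rab3il1* from 19.6% ± 5.41 to 2.06% ± 1.15 of its pair with *Rab3ip*. The pools of the ages overlapped for other pairs. *Rab5c* was 27.6% ± 1.43 of *Rab5b* and *Rab5c* at E15 and 27.2% ± 2.36 in the adult, and *Dnm3* 38.3% ± 4.18 and 32.7% ± 6.09 of *Dnm1* and *Dnm3*.

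**Figure D4:**
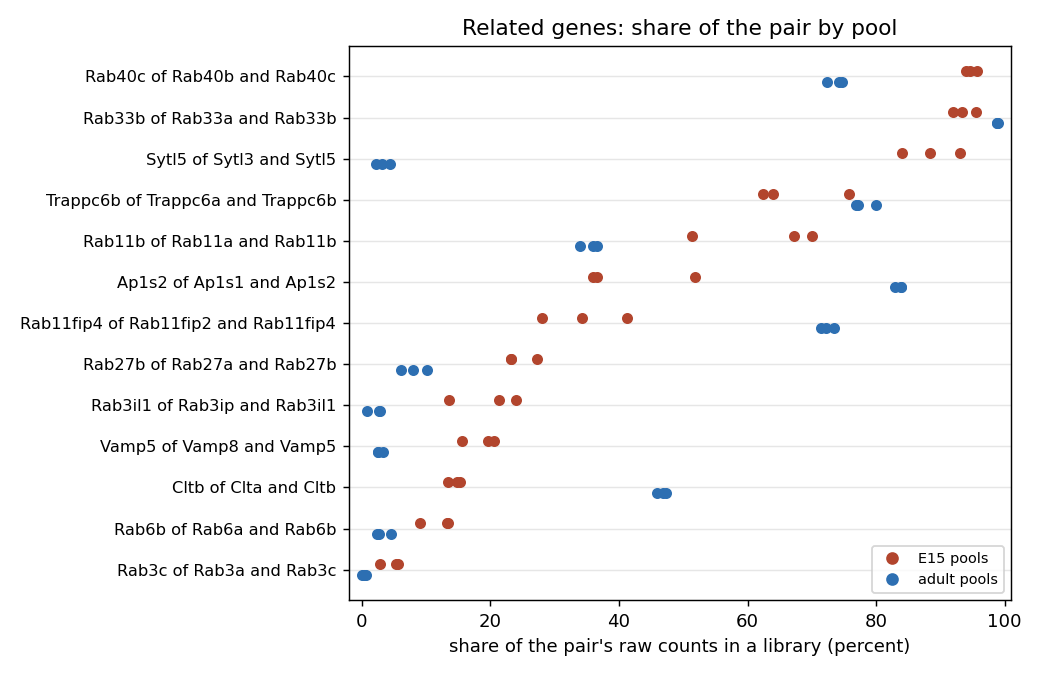
Share of a pair's raw counts taken by the gene named first in each row (horizontal axis, percent of the pair's counts in a library), for the 13 pairs whose pools did not overlap, with E15 and adult pools as separate points. The share moves furthest for *Sytl5* (88.5% to 3.28%), *Ap1s2* (41.5% to 83.6%) and *Rab11fip4* (34.5% to 72.4%).

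The genes of synaptic exocytosis were examined apart because neural markers differed among the pools of an age. Of 20 listed, 11 are members, 4 called at E15 (among them *Stx1a*, *Dnm1* and *Dnm3*), 5 in the adult (*Rab3a*, *Snap25*, *Vamp1*, *Vamp2* and *Syt1*) and 2 at neither age (*Syt4* and *Rab3c*). Their median log2 fold change was -1.11, and 0.44 without adult replicate 2. *Snap25*, the SNARE of nerve terminals, was at 57.6, 13.4 and 34.02 at E15 against 99.6, 308 and 66.2 in the adult, a log2 fold change of -2.18 (SE 0.64), and without adult replicate 2 it was -1.27 and was not called, nor was it with total counts only (-1.39). *Syt4* was at 87.6, 22.3 and 74.1 (E15) and 34.1, 305 and 54.3 (adult), a log2 fold change of -1.11 (SE 0.77) that turned to 0.44 without that pool. *Stx1a*, at 75.8, 78.7 and 78.6 (E15) and 16.4, 43.8 and 7.94 (adult), went the other way, from 1.76 (SE 0.50) to 2.63. Adult replicate 2 was highest of its age for these 3 genes.

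Neuron and astrocyte markers were also highest of their age in that pool. It was not set apart by these alone. Endothelial and erythroid markers, at 825 and 224, were highest of their age there too, beside 606 and 143 in adult replicate 3. Mesenchymal and macrophage markers were highest there by little, at 15950 and 621 beside 15463 and 593 in adult replicate 3. The developing neuron list, of which 11 of 12 genes have a name and 10 were called at E15, summed to 1694 to 5328 at E15 and to 141 and 184 in adult replicates 1 and 3 but 705 in replicate 2, with *Neurod6* and *Nhlh1* at 0 in the adult. Adult neuron markers (4 of 10 named, 3 called in the adult, none at 0 at either age) summed to 18.1 to 37.1 at E15 and to 204 to 418 in the adult, again highest in replicate 2, as were the astrocyte markers (2 of 5 named, both called in the adult, none at 0) at 3578 against 145 to 184 at E15 and 1588 and 2034 in the other adult pools. Oligodendrocyte markers (5 of 6 named, 4 called in the adult and 1 at E15, none at 0) were highest in adult replicate 1, at 6943 against 1729 and 2860 in the others and 820 to 972 at E15. The part of these cells in the results for the synaptic genes was not tested.

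Not all synaptic genes followed that pool. *Rab3a* was lower in adult replicate 2 than in replicate 1, and its log2 fold change without replicate 2 was -2.62, against -2.60 with all pools. *Vamp2*, a synaptobrevin also found outside neurons, was at 861, 819 and 804 at E15 against 1734, 1949 and 1790.2 in the adult, a log2 fold change of -1.14 (SE 0.10), and without that pool of -1.12. At E15 the developing neuron markers were highest in replicate 1 (5328) and lowest in replicate 2 (1694), and *Snap25*, *Syt4* and *Syt1* had the same order of pools, while *Stx1a* ranged from 75.8 to 78.7.

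**Figure D5:**
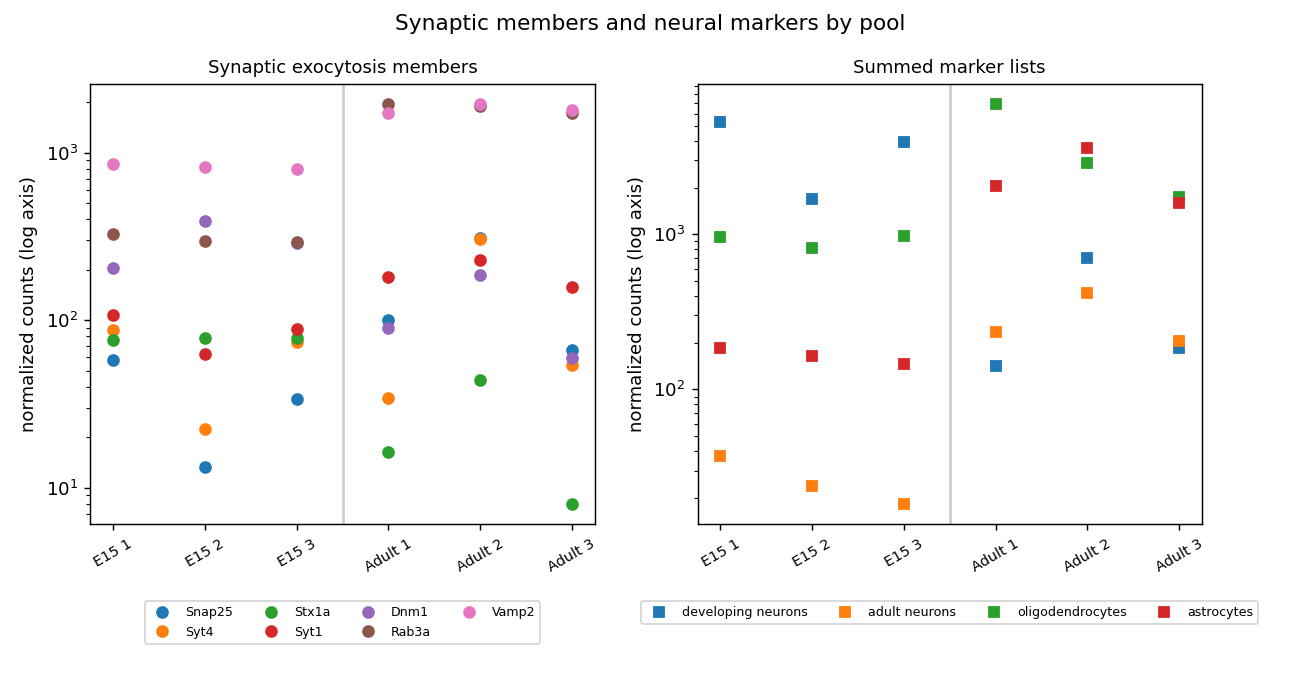
Normalized counts per pool (log axes) of 7 synaptic exocytosis members, left, and the summed levels of 4 neural marker lists, right, with the pools of the ages on either side of the grey line. *Snap25*, *Syt4* and *Stx1a* peak in adult replicate 2 among the adult pools, as do the neuron and astrocyte lists, while *Rab3a* and *Vamp2* are nearly level within an age.

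Of 34 genes listed for traffic to the epithelial surface, 20 are members, 8 called at E15, 11 in the adult and 1 at neither age, with a median of -0.81 under TMM and -0.01 with total counts only. Markers of other plexus cells moved with age as well. Endothelial markers (5 of 7 named, all called at E15, none at 0) summed to 6071 to 8301 at E15 and 467 to 825 in the adult, erythroid markers (3 of 6 named, all called at E15, none at 0) to 5536 to 7428 and 112 to 224, mesenchymal markers (7 of 7 named, 5 called at E15 and 2 in the adult, none at 0) to 40539 to 53807 and 15358 to 15950, and macrophage markers (2 of 6 named, 1 called at E15, none at 0) to 963 to 1156 and 386 to 621. Their part in the higher E15 levels of genes such as *Exoc3l*, *Stx11* and *Vamp5* was not tested.

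Within E15, replicate 1 lay closest to the adult levels for 26 of the 34 members higher at E15 and for 50 of the 84 higher in the adult, beside 55.9% and 49.2% of all genes called in these directions. *Ap1m1*, *Rab11b*, *Vps52* and *Ap1s2* above are examples. Leaving out each pool in turn, 107 of the 118 called members were called each time, 11 were lost at least once (among them *Ap3s1*, *Chmp6*, *Dnm1*, *Rab13*, *Rab23*, *Rab27b*, *Snap25*, *Stx11*, *Sytl4* and *Vps13a*), and none of the 118 changed sign.

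Of 88 other genes of the same pathway that were listed by function, 51 carry a name. Of these, 38 were called in the adult, 12 at E15 and 1 (*Unc13a*) at neither age, beside 42.2% and 50.6% of all named genes tested. Their median log2 fold change was -0.75 under TMM. With total counts only 13 were called in the adult and 15 at E15, the median was 0.06 and 14 changed sign. Their names too come only from the authors' table, so nothing is read from these counts. *Epn3*, an epithelial epsin of clathrin-mediated uptake, was at 352, 514 and 553 at E15 against 5897, 5831 and 5887 in the adult, a log2 fold change of -3.63 (SE 0.17). *Rabac1*, which binds prenylated Rabs at the Golgi, was at 421, 661 and 715 (E15) and 3501, 3598 and 3305 (adult) (-2.53, SE 0.19). *Uso1*, the tether p115 between the endoplasmic reticulum and the Golgi, was at -1.36 under TMM and -0.56 with total counts only, on the same side as the TRAPP and golgin genes. On the E15 side, *Rims1* (2.07, SE 0.16) and *Unc13b* (1.77, SE 0.14), which prime vesicles for release, and *Hip1* (1.77, SE 0.10), a clathrin adaptor, had pools that did not overlap with the adult ones. *Syp*, a synaptic vesicle protein, was at 154, 63.1 and 129 at E15 against 188, 621 and 120.5 in the adult, highest in adult replicate 2 like *Snap25*.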

How the data were processed

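Total RNA of whole lateral ventricular choroid plexus from Sprague-Dawley rats was sequenced in 3 pools of 10 animals at E15 and 3 in 6 week old adults. The authors' gene annotation was Ensembl release 61, their aligner Bowtie 0.12.7 and their counter HTSeq 0.4.7p4. Only uniquely placed reads entered the counts, so those of genes with near-identical copies are uncertain. The deposited table holds these raw counts, without normalization. The authors' second table gives symbols, log2 fold changes, log2 abundances, p-values and adjusted p-values from edgeR 2.4.0, of which only the symbols were used here.

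Samples were grouped by age as labelled, and none was left out. Library totals were 17875089 to 19204440 counts. The ages were compared with edgeR 4.0.16 (glmQLFit and glmQLFTest, R 4.3.3) on genes with more than 10 counts in all, with TMM factors (1.32 to 1.33 at E15, 0.735 to 0.773 in the adult), age as the only term and Benjamini-Hochberg adjustment over 16643 genes. The biological coefficient of variation was 18.2%. The SE is the absolute log2 fold change divided by the square root of the F statistic. With 3 pools per age the smallest two-sided p of an exact permutation test is 0.10, so none was run. A floor of 3 counts stands for an age with 0 counts, counting error only.

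Symbols starting as Rab, Vps, Snx, Stx, Vamp or Snap with a digit, or as Ap1 to Ap4 subunits, Arf1 to Arf6, Exoc, Syt, Sytl, Napa, Nsf, Chmp, Clta to Cltc, Dnm1 to Dnm3, Trappc, Golga or Cog, made up the members. They and all lists were chosen with earlier results of these data known. Named in each role group were, in each direction, the 3 largest fitted changes among members whose ages did not overlap and whose mean raw count exceeded 100 at the age with more, the members with the most counts at each age, and members of a synaptic and an epithelial list. Other members named to complete a complex, or because they lay at the call threshold, were chosen after their values were seen. *Vps24* is also known as *Chmp3*, *Rab1* as *Rab1a* and *Exoc3l* as *Exoc3l1*, and *Exoc4* is listed under the name of an insertion allele. Promoters came from RefSeq (GRCr8), a newer build than the counts, and 102 members were matched by symbol. The RLE, upper quartile and total counts scalings, other filters, DESeq2 1.42.0, limma-voom (limma 3.58.1), edgeR's exact test, a replicate block and leaving out each pool were the alternatives. The tests were tried on simulated counts first. Some results of single genes are not reported here. Tables used Python 3.11.15 with pandas 2.3.3 and numpy 2.4.6, and plots matplotlib 3.10.9.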

Additional observations from a re-analysis of the deposited data

How the results depend on the processing

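Of the 126 members, 34 were called at E15 and 84 in the adult, with a median log2 fold change of -0.83. With total counts only, the counts were 40 and 34, without a share of all genes called beside them, and the median was -0.0233. The fold changes of *Rab5b* (0.26), *Stx12* (0.14), *Cltc* (0.25), *Vps35* (0.047) and *Stx3* (0.0448) changed sign with this scaling, and of these *Rab5b* alone was called. This scaling leaves out the TMM factors, which differ between the ages. The median moved to -0.71 with upper quartile scaling and to -0.87 with a mean count above 100, where 116 members were tested. Leaving out 1 pool gave 30 to 37 members at E15, 81 to 84 in the adult and a median of -0.92 to -0.79. RLE scaling and DESeq2 gave 34 and 84, limma-voom 35 and 84, edgeR's exact test (common dispersion) 40 and 86, filterByExpr 34 and 84 (124 members tested) and no filter 33 and 84. The replicate numbers did not pair the samples (correlations of deviations between same-numbered pools of -0.007, -0.011 and -0.039, and E15 replicate 3 for instance correlated best with adult replicate 2 at 0.041), and with the replicate number as a block 32 and 84 members were called, with a median of -0.84. Of the 62 genes the rule named, 60 stayed on the same side of the threshold under the block and 59 to 61 without 1 pool. With total counts only 47 did, while 9 lost the call with their sign kept, 1 gained it and 5 that were called under TMM changed sign. Of these 5 only *Rab5b* was called in the new direction. *Syt3* and *Syt4*, not called, changed sign under some of the alternatives. Calls of members with few counts were unstable, with *Rab25* and *Snx22* called without E15 replicate 1 and *Syt10* without adult replicate 2.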
